A study of Mus musculus with 3 samples.

Results

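The COUP-TF genes Nr2f1, Nr2f2 and Nr2f6 encode nuclear receptors, and NR2F2 (also named COUP-TFII) was the protein precipitated here. A peak was assigned to these loci when its nearest transcription start site (TSS, curated RefSeq) belonged to 1 of the 3 genes, or when it lay within 200 kb of such a TSS. This gave 12 of 10069 peaks: 7 at Nr2f2, 2 at Nr2f1 and 3 at Nr2f6. The rule used position only, and no count. ChIP-seq had been run on whole testes of CD-1 mouse embryos, an outbred stock, at E14.5, separated from the mesonephros and pooled before the chromatin was sheared. There were 2 NR2F2 ChIP libraries from independent experiments and 1 input library of chromatin without precipitation. The study's methods call these biological replicates but do not say whether each drew on its own pool of testes. Beside counting error, the edgeR and DESeq2 p-values thus reflect only the spread between these libraries. All cells of the testis were pooled, so a low count cannot be traced to few bound cells or to weak binding in many.

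COUP-TFs bind DNA as dimers at repeats of a short half-site with the letters AGGTCA or a near variant of it, and they act on transcription mostly as repressors, less often as activators. In many developing organs NR2F2 is found in the mesenchyme, and in the fetal testis it is known as a marker of the interstitium outside the Leydig cells. Nr2f1 and Nr2f2 are close paralogs with overlapping roles in development. Nr2f6 is a more distant member of the group. Nr2f1 and Nr2f2 each lie beside a long region without another curated TSS. Each shares its 5' region with a long non-coding RNA gene on the opposite strand, A830082K12Rik and B130024G19Rik respectively. Nr2f6 lies among many genes.

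The 5 peaks printed here are the pair closest to the TSSs of Nr2f2, the Nr2f2 peak farthest downstream, the Nr2f2 peak farthest upstream, and the upstream peak of Nr2f1. They show the sequence beside the TSSs of both genes and at the ends of the Nr2f2 set. Sequences are from the RefSeq copy of the mm10 reference, plus strand, 300 bp each. Capitals mark the half-sites AGGTCA or GGGTCA on either strand (TGACCT or TGACCC where the match is on the minus strand), extended half-sites, and 13-base repeats that are described with the motifs.
Nr2f2, 963 bp upstream of the nearer TSS, chr7:70361556-70361855: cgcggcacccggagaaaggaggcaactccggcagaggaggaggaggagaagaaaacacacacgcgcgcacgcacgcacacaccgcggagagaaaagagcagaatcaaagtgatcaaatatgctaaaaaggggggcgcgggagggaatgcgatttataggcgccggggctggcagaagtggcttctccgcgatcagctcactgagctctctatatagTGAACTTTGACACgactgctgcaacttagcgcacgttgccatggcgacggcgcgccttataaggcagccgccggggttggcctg
Nr2f2, 1108 bp upstream of the outer TSS, chr7:70367854-70368153: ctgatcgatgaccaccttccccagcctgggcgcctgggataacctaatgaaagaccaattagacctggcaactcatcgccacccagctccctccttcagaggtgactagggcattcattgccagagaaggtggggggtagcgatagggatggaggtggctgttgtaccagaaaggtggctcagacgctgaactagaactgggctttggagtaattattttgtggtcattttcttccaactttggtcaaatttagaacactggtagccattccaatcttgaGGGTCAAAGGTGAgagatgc
Nr2f2, 143.2 kb downstream, chr7:70217082-70217381: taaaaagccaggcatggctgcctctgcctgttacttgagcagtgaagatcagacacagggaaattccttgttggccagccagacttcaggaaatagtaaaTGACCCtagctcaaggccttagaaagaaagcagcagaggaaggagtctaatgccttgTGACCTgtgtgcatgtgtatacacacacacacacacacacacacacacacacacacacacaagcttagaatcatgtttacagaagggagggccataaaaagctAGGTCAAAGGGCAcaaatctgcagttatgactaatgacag
Nr2f2, 657 kb upstream, chr7:71023755-71024054: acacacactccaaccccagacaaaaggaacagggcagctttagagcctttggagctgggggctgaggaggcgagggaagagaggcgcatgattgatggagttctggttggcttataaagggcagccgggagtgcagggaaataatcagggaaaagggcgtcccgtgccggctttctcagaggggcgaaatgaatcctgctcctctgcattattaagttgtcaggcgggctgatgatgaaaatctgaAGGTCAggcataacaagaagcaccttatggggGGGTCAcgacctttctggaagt
Nr2f1, 4757 bp upstream, chr13:78203630-78203929: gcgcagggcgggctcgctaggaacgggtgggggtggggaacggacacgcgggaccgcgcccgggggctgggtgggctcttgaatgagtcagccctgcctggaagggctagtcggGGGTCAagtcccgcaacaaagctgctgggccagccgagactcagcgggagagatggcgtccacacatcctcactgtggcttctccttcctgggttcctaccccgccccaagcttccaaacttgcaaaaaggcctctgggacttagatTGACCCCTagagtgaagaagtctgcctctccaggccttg

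Over all peaks the deposited tables held 73251 input counts, 426784 in ChIP replicate 1 and 364261 in replicate 2. These are totals at peaks and not sequencing depths, so a ratio of ChIP to input is known only up to a factor shared by all peaks. The median peak had 7 input counts, 37 counts in replicate 1 and 31 in replicate 2. Peaks had been called on the merged ChIP reads, so ChIP above input was not tested again, and the lowest sum of both replicates was 24.

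NR2F2 peaks lay next to the Nr2f2 gene itself. Nr2f2 (gene identifier 11819, chromosome 7, 70351950 to 70366746, minus strand) has curated TSSs at 70366746 and at 70360593, and 1 peak lay just upstream of each. The peak at chromosome 7, 70361556 to 70361855, was 963 bp upstream of the inner TSS, within an intron of the longer transcript. It held 8 input counts, 67 counts in ChIP replicate 1 and 53 in replicate 2. Both ChIP counts lay above the median peak, and the summed count of 120 ranked 1270 of 10069.

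The second of this pair, at 70367854 to 70368153, was 1108 bp upstream of the outer TSS and in an intron of B130024G19Rik, the non-coding gene on the opposite strand. It held 9 input counts, 45 in replicate 1 and 55 in replicate 2. Its sum of 100 ranked 2172. The order of the replicates was the reverse of that at the neighbouring peak, 5998 bp away. Neither peak overlapped a TSS of Nr2f2.

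Downstream of Nr2f2, 2 peaks lay in an intron of Gm29683, a gene whose TSS at 70337822 is closer to them than that of Nr2f2. The nearer, at 70331504 to 70331803, was 28.8 kb from the Nr2f2 TSS and held 4 input counts, with 37 and 24 ChIP counts in replicates 1 and 2. The farther, at 70217082 to 70217381, was 143.2 kb away and held 7 input counts, with 18 and 32 ChIP counts. Both sums, 61 and 50, were under the median sum of 68 over all peaks.

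Upstream of Nr2f2 the next 3 peaks lay beyond the 200 kb window and were assigned to Nr2f2 because no curated TSS was closer. A stretch of 454989 bp without a peak separated them from the gene. The first, at 70823143 to 70823442, held 4 input counts and 12 and 14 ChIP counts, and its sum of 26 was close to the lowest of the series, with 0.109% of peaks lower. The second, at 70859982 to 70860281, held 3 input counts and 18 and 26 ChIP counts. The third, at 71023755 to 71024054, held 2 input counts and 25 and 24 ChIP counts. Each of the 3 sums, 26, 44 and 49, was below the median of all peaks, and each input count was below the median of 7.

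The distances of these 3 peaks, 456397, 493236 and 657009 bp, are uncommon in the series. Of 10064 peaks on the chromosomes, 70 (0.696%) lay more than 400 kb from any curated TSS, and the median summed ChIP count of those 70 was 46. Of the 3 Nr2f2 peaks, the farthest was the only one above that median. Their assignment depends on the gene models: with predicted RefSeq transcripts included, the nearest gene was Gm39032 for 2 of them and Gm45990 for the third.

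**Figure D1:**
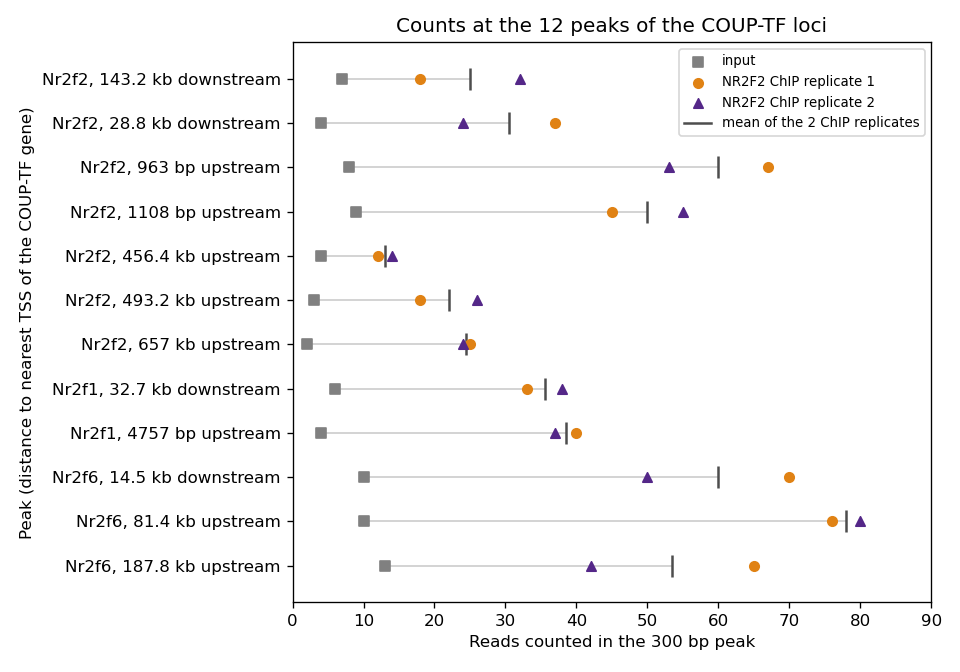
Reads counted in each of the 12 peaks of the COUP-TF loci (x axis, reads per 300 bp peak), with the input as squares, ChIP replicates 1 and 2 as circles and triangles, and a vertical bar at the mean of both replicates. Of the 12, the lowest ChIP sum was at the Nr2f2 peak 456.4 kb upstream, with 12 and 14 reads and an input of 4. The highest was at the peak of the Abhd8 TSS, 81.4 kb from Nr2f6, with 76 and 80 reads and an input of 10. The peaks had been called on these ChIP reads, and sequencing depths are not known. A ChIP count larger than the input is therefore no test of enrichment.

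Nr2f1 (13865, chromosome 13, 78188973 to 78198873, minus strand) had 2 peaks, 1 on either side. The peak at 78203630 to 78203929 lay 4757 bp upstream of the outer TSS in an intron of A830082K12Rik. It held 4 input counts, 40 in replicate 1 and 37 in replicate 2. The peak at 78163418 to 78163717, 32732 bp downstream of the inner TSS, lay in a coding exon of Fam172a and held 6 input counts, 33 and 38 ChIP counts. The replicates differed by 3 and 5 counts, and the summed counts of 77 and 71 were just above the median of 68.

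Nr2f6 (13864, chromosome 8, 71374119 to 71381952, minus strand) was the nearest gene to 0 peaks. The 3 peaks within 200 kb of its TSS all lay at or beside the TSS of another gene. The closest, at 71367135 to 71367434, was 14518 bp away at the TSS of Use1, which encodes a SNARE protein of transport from Golgi to endoplasmic reticulum. It held 10 input counts, 70 in replicate 1 and 50 in replicate 2.

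The peak at the TSS of Abhd8 (71463387 to 71463686, midpoint in the 5' UTR) held 10 input counts and 76 and 80 ChIP counts. The peak 188 bp downstream of the TSS of Slc27a1, the gene of a fatty acid transport protein, lay at 71569785 to 71570084 in an intron and held 13 input counts, 65 in replicate 1 and 42 in replicate 2. All 3 sums, 120, 156 and 107, were above the 75th percentile of all peaks, which was 95. The Abhd8 peak, ranked 518, had the highest sum of the 12.

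**Figure D2:**
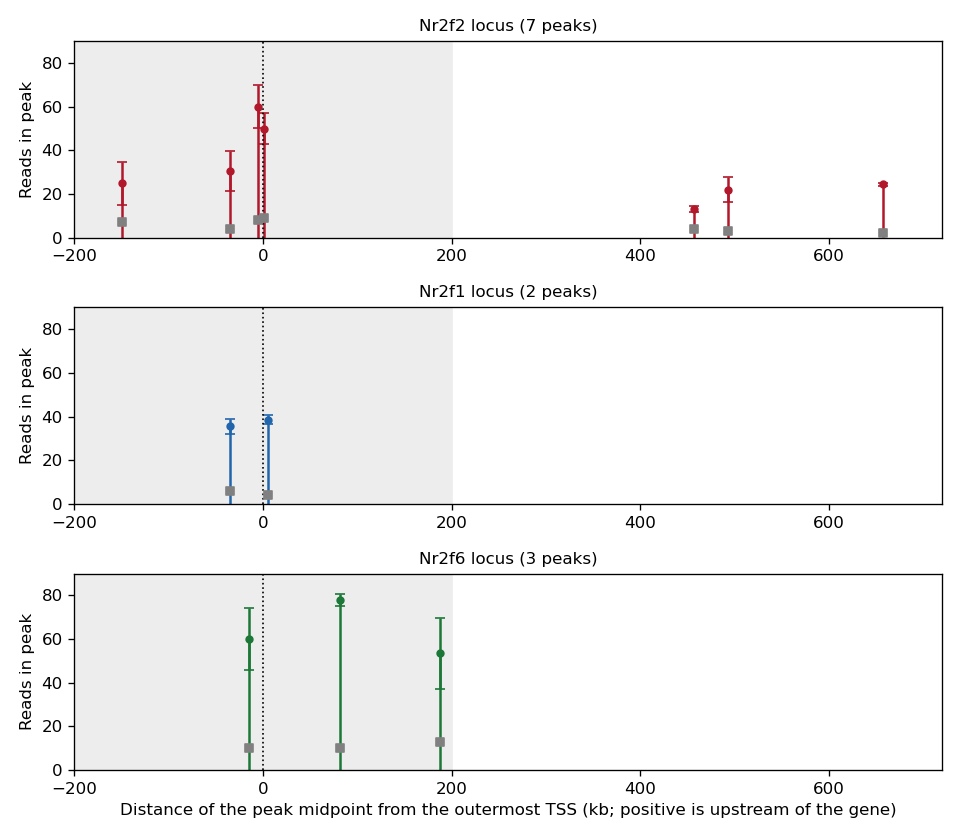
Mean ChIP count of both replicates (circles on stems drawn from 0, capped bars are SD, n = 2) and input count (grey squares) against the distance of the peak midpoint from the outermost curated TSS of each gene, in kb, with positive values upstream and the 200 kb window shaded. Of the Nr2f2 peaks, 2 lie beside the TSSs, 2 lie downstream within the window and 3 lie from 456.5 kb to 657.2 kb upstream, and the 2 Nr2f1 peaks lie at -35.3 kb and 4.91 kb.

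The regions without another curated TSS upstream of Nr2f2 and Nr2f1 were compared by the number of peaks in them. From the outer TSS of Nr2f2 to the next curated TSS, that of 4930441H08Rik, there were 1.543 Mb with 10 peaks, of which 4 had Nr2f2 and 6 had 4930441H08Rik as the nearest gene. From the outer TSS of Nr2f1 to the next curated TSS, that of Arrdc3, there were 2.685 Mb with 1 peak, the one 4757 bp from Nr2f1. This is 6.48 peaks per Mb against 0.373, with 3.69 per Mb over all chromosomes. The last value includes peaks at TSSs, so it is not a like reference for regions chosen to hold no other curated TSS. The longer region thus held fewer peaks. These are 2 regions of the same libraries, and the difference was given no test.

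Within 200 kb of a TSS, Nr2f2 had 4 peaks, Nr2f6 had 3 and Nr2f1 had 2, and the median over all curated genes was 3. Thus 25.6% of genes had more peaks in this window than Nr2f2 and 51.1% had more than Nr2f1. The 5 peaks with Nr2f2 as nearest gene were a number reached by 41 of the 8068 genes that were nearest to any peak (0.508%, Nr2f2 included), of which 9430078K24Rik with 9, Nfia with 8, and Efna5, Lacc1 and Rbms3 with 7 each had the most. With predicted RefSeq transcripts included, the peaks with a COUP-TF gene as nearest gene fell in number from 7 to 3, the upstream pair at Nr2f2 and the peak 4757 bp upstream of Nr2f1.

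Ratios of ChIP to input, with 0.5 added to each count, ranged from a mean of 3 ± 0.314 (SD, n = 2) at the Nr2f2 peak 456.4 kb upstream to 10 ± 0.283 at the Nr2f2 peak 657 kb upstream. The latter rests on 2 input counts, and the exact 95% counting interval of its ratio in replicate 1 was 3.12 to 109. At the peak 963 bp upstream of the inner Nr2f2 TSS the mean ratio was 7.12 ± 1.16, with intervals of 4.02 to 20.2 in replicate 1 and 3.13 to 16.1 in replicate 2. At the peak 1108 bp upstream of the outer Nr2f2 TSS it was 5.32 ± 0.744, and at the upstream Nr2f1 peak 8.67 ± 0.471. Both ratios of a peak share the same input count, so the SD leaves out the counting error of the input, which the intervals include. The intervals of the 12 peaks overlap widely.

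The median ratio over the 12 peaks was 6 in replicate 1 and 5.88 in replicate 2, against 5.11 and 4.39 over all peaks. In both replicates 8 of the 12 peaks lay above the median of all peaks and 3 lay below it. The 3 below were the peaks 143.2 kb downstream and 456.4 kb upstream of Nr2f2 and the Slc27a1 peak. When 5 instead of 0.5 was added before dividing, the median of the mean ratio went from 6.10 to 3.94 over the 12 peaks and from 4.73 to 3.27 over all peaks. Medians are descriptions of a small set and carry no test.

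**Figure D3:**
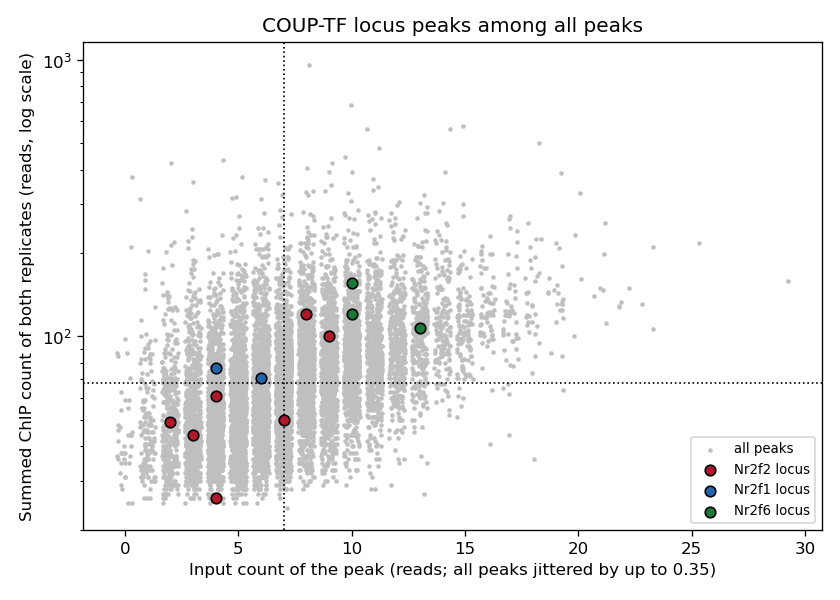
Summed ChIP count of both replicates (y axis, reads, log scale) against input count (x axis, reads) for all 10069 peaks in grey and the 12 COUP-TF locus peaks in colour, with dotted lines at the medians of 68 and 7. The coloured points lie within the grey cloud, 7 of the 12 above the median sum, and the 3 Nr2f6 locus peaks have both high ChIP and high input counts of 10 to 13.

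Whether a peak stood apart from the typical peak was tested with edgeR on all 10069 peaks, with the libraries scaled by TMM on the counts at peaks. With 1 input library, the spread between libraries in its SE and p comes from the 2 ChIP libraries alone. The SE and p also include counting error, which is largest where the input count is low. Relative to the typical peak, 9 of the 12 had a positive and 3 a negative log2 ratio, against 51.2% positive over all peaks. Of the 12, 0 passed a Benjamini-Hochberg adjusted p of 0.05 in either direction in edgeR. Over all peaks 1.53% passed above and 0.0497% below. At an unadjusted p under 0.05 the members again numbered 0, against 10.4% of all peaks, and DESeq2 also called 0 but gave an adjusted p to only 1 of the 12. No departure from the typical peak was detected at these loci. With adjusted shares this low over all peaks, 0 calls among 12 peaks is no result particular to them. Input counts of 2 to 13 limited the test further.

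The highest log2 ratio was 1.28 ± 0.93 (SE) at the Nr2f2 peak 657 kb upstream (edgeR adjusted p = 0.718). The upstream Nr2f1 peak followed with 0.94 ± 0.69 (edgeR adjusted p = 0.720). The 963 bp Nr2f2 peak had 0.59 ± 0.52 (edgeR adjusted p = 0.814) and the 1108 bp peak 0.16 ± 0.52 (edgeR adjusted p = 0.965). The value of the 1108 bp peak changed sign with the library used, being 0.40 without ChIP replicate 1 and -0.11 without replicate 2. The Abhd8 peak had the smallest adjusted p of the 12, with a log2 ratio of 0.65 ± 0.46 (edgeR adjusted p = 0.706). Standard errors of 0.46 to 0.93 exceed or approach most of these values.

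**Figure D4:**
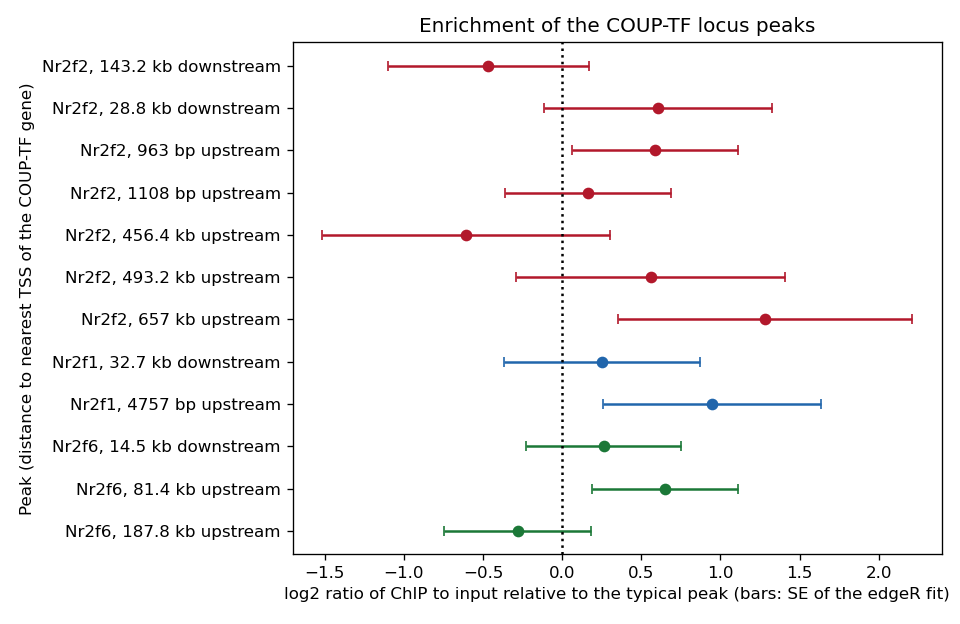
Fitted log2 ratio of ChIP to input relative to the typical peak (x axis, points, with bars for the SE of the edgeR fit) at the 12 peaks, coloured by locus. The values run from -0.61 to 1.28 and none of the 12 passed the adjusted threshold.

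The ChIP replicates were next compared at each peak by an exact two-sided binomial test, which compares the 2 libraries and not conditions, and which allows for counting error only. Of the 12 peaks, 0 passed an adjusted p of 0.05, and 0.0993% of all peaks did. Without adjustment 1 of the 12 had a p under 0.05, against 8.83% of all peaks. This was the peak 143.2 kb downstream of Nr2f2, where replicate 1 held 18 of the 50 ChIP counts, or 36.0%, while its share of all ChIP counts was 54.0% (exact binomial p = 0.0150, adjusted p = 0.396). At the pair beside the Nr2f2 TSSs the share of replicate 1 was 55.8% and 45.0%.

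The peaks were then searched on both strands for the half-sites AGGTCA and GGGTCA. Of the 12 peaks 7 held at least 1, or 58.3%, against 58.9% of all peaks and 26.6% of windows of the same length 2 kb to either side of all peaks. The peak 143.2 kb downstream of Nr2f2 and the Slc27a1 peak held 3 each. The peak 963 bp upstream of Nr2f2 and the peaks at Use1 and Fam172a were among the 5 with none.

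The extended half-sites AGAGGTCA and AGGGGTCA, which contain the plain half-sites, were found in 1 of the 12 peaks, against 10.5% of all peaks. It was AGGGGTCA on the minus strand of the upstream Nr2f1 peak, where it reads TGACCCCT on the printed strand. Direct repeats of 2 half-sites (AGGTCA or GGGTCA, or the same with T as the base after the first G of AGGTCA, which gives AGTTCA and, with G in front, GGTTCA) with 0 to 5 bases between them were in 0 of the 12 and in 6.15% of all peaks.

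Inexact repeats were looked for only after the sequences of these peaks had been read. A repeat of 2 such half-sites with 1 base between them and at most 1 mismatch was in 3 of the 12 peaks, against 9.67% of all peaks and 3.23% of the flanking windows. All 3 were Nr2f2 peaks within 200 kb. The peak 963 bp upstream held GTGTCAAAGTTCA on the minus strand, at bases 217 to 229. The peak 1108 bp upstream held GGGTCAAAGGTGA at bases 281 to 293, and the peak 143.2 kb downstream held AGGTCAAAGGGCA at bases 261 to 273, both on the plus strand. Bases are counted from the lower coordinate of the peak. The matches were 72.5, 136.5 and 116.5 bp from the peak centres. Because the form was chosen on these sequences, its count is a description only.

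Base composition varied within the set. The share of G and C was lowest in 2 of the 3 distant Nr2f2 peaks, at 40.3% and 43.0%, and highest in the Abhd8 peak at 71.7%. The median of the 12 was 59.5% and that of all peaks 60.7%. The ratio of observed to expected CG pairs was 1.07 in the peak 963 bp upstream of Nr2f2 and 1.02 in the Fam172a peak, against a median of 0.640 over all peaks, and it was 0 in the peak 143.2 kb downstream. Repeat sequence in the reference made up 30.7% of that last peak, 19.7% of the peak 456.4 kb upstream and 19.0% of the 963 bp peak. It was 0 in the median of all peaks.

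Other genes of the NR2 family and known partners of COUP-TFs were counted for comparison. Of 9 NR2 genes (Nr2c1, Nr2c2, Nr2e1, Nr2e3, Hnf4a, Hnf4g, Rxra, Rxrb and Rxrg), 2 were the nearest gene to a peak, with 1 peak each, and of all 26182 genes with a curated TSS 30.8% were. The peak at the TSS of Nr2c1, which encodes the orphan receptor TR2, held 6 input counts and 185 and 182 ChIP counts, with a log2 ratio of 2.61 ± 0.42 over that of the typical peak (edgeR adjusted p = 6.81e-07). The peak 57 bp upstream of Nr2c2, the gene of the related receptor TR4, held 60 and 67 ChIP counts over 6, with a log2 ratio of 1.09 ± 0.56 (edgeR adjusted p = 0.496). The 4 partner genes given here, Zfpm2, Ncor1, Bcl11a and Bcl11b, were nearest to 6 peaks, with log2 ratios from -0.85 at Bcl11a to -0.0010 at Bcl11b. Of these 6 peaks, 0 passed above or below in edgeR, also at an unadjusted p under 0.05. The adjusted p of the Nr2c1 peak was 0.0173 in edgeR with DESeq2 size factors and 0.0349 in DESeq2.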

How the data were processed

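For each library the authors deposited counts of reads in 300 bp peaks on mm10, with no normalization. By their methods and processing notes, single-end reads were trimmed (Trim Galore 0.6.7), mapped with Bowtie2, kept above a minimum mapping quality, freed of duplicate reads (Picard 1.110), and peaks were called by HOMER 4.11.1 on the merged ChIP replicates. The sources used here do not give the rule that assigned reads to peaks. Testing ChIP against input would repeat that selection and was not done.

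Groups came from the sample labels. Nearest TSSs used 45756 curated RefSeq transcripts of GRCm38.p6, the assembly of mm10, with distances from the nearer peak edge. Gene, peak and motif lists were chosen with earlier results of these data known. The 3 libraries were fitted over all peaks with edgeR 4.0.16 (quasi-likelihood, TMM, Benjamini-Hochberg) and, as an alternative, DESeq2 1.42.0 (R 4.3.3), and both fits take the lone input to be as variable as a ChIP library. Standard errors are the log2 ratio over the root of the F statistic. Ratio intervals are exact conditional binomial intervals from the raw counts at the 95% level, and cover counting error only. Every member peak was named, with more detail for the peak closest to each gene and for the 3 highest ChIP sums. Other genes named were the nearest genes, those with the most peaks, and a list of NR2 receptors and partners, of which 1 is not reported here. The tests were checked on simulated counts. Other values used Python 3.11.15, scipy 1.17.1 and pysam 0.24.0.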

Additional observations from a re-analysis of the deposited data

How the results depend on the processing

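The count of 0 called COUP-TF locus peaks held with DESeq2 size factors, no TMM, robust edgeR fitting and at least 10 input counts. DESeq2 also called 0, but it gave an adjusted p to only 1 of the 12, so its count says little. The setting of at least 10 input counts left 3 of the 12 to test. It moved the log2 ratio of the peaks it kept by a median of 0.32. With that shift, 1 of the 3, the Abhd8 peak, had an unadjusted p under 0.05. Of 51 log2 ratios refitted with all 3 libraries, 50 kept their direction, and the Slc27a1 peak turned from -0.28 to 0.039 with at least 10 input counts, a move of the same size as that median. Without TMM the median of all peaks moved by -0.11. Over all peaks, calls above the typical ratio changed from 154 to 39 with DESeq2 size factors, 102 without TMM, 22 with DESeq2 and 58 with at least 10 input counts. The last left fewer peaks to test, and DESeq2 gave no adjusted p to 9370 of the 10069 peaks. Calls below numbered 5 in the main setting, and 0 under either DESeq2 or its size factors. With equal expected shares, 23 instead of 10 peaks differed between the replicates, 0 of them at these loci.

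The median ratio of the 12 peaks fell from 6.10 to 3.94 with 5 added to each count, when that of all peaks fell from 4.73 to 3.27, and was 5.88 to 6 without either ChIP replicate. With 1 ChIP library against 1 input there is no test. The log2 ratio of the peak 143.2 kb downstream of Nr2f2 was -0.01 without replicate 1 and -1.06 without replicate 2. That of the 1108 bp Nr2f2 peak turned from 0.16 to -0.11 without replicate 2, and the other 23 values without a replicate kept their sign. The set held 12 peaks by midpoints, 10 with a 100 kb window and 9 with predicted transcripts, when 3 had a COUP-TF gene nearest. In the central 100 bp, 4 of the 12 held a half-site and 0 an extended one, against 32.4% and 5.19% of all peaks. The 3 inexact repeats, and the 10 peaks with any of 4 half-sites (66.9% of all peaks and 50.4% of flanking windows), were searched for after seeing the data. No paired analysis was possible because the input has no replicate number that pairs it with a ChIP library. Input counts of 2 to 13 limit every ratio.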
